A study of Mus musculus with 12 samples.

Results

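Histone marks were described at the genes of 3 creatine kinases, Ckm, Ckb and Ckmt2, and of myoglobin, Mb, which are 4 of the 22342 protein-coding genes of the annotation used. These genes were chosen by name, with earlier results of these data known. The data are 12 chromatin immunoprecipitation and sequencing (ChIP-seq) libraries of C2C12, a line of mouse myoblasts of the C3H strain, with 1 library for each of 6 marks in each of 2 cell types. Near-confluent myoblasts were grown in 10% serum, and myotubes were taken about 5 days after serum was withdrawn and were freed of unfused cells by light trypsin treatment. Both cell types came from passages 15 to 18 and carried no other treatment. There is 1 library per mark and cell type, so the values lack replicates and conditions could not be compared by a test. Intervals are exact 95% intervals that cover counting error only.

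Creatine kinases move a phosphate group between ATP and creatine, and so keep ATP high where it is used fast. Ckm encodes the muscle form of the cytosolic enzyme, Ckb the brain form, which is also found in undifferentiated myoblasts, and Ckmt2 the sarcomeric mitochondrial form, which makes phosphocreatine next to the site of ATP synthesis. Myoblasts are known to exchange the brain form for the muscle form as they fuse. Mb encodes the oxygen-binding protein of muscle. Ckm is a classic target of the myogenic factors MyoD and myogenin, which bind E-boxes (CANNTG), and of MEF2 proteins, both at its promoter and at an enhancer a little over 1 kb upstream. H3K4me3 usually marks the promoters of active genes, H3K27ac active promoters and enhancers, and H3K4me1 enhancers. H3K4me2 is found at both. H3K36me3 covers the bodies of transcribed genes, and H3K27me3 is a mark of Polycomb repression.

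All positions are in mm9. Ckm (ENSMUSG00000030399.1) lies on the plus strand of chr7:19996443-20006932 and Ckb (ENSMUSG00000001270.8) on the minus strand of chr12:112907566-112910549. Ckmt2 (ENSMUSG00000021622.3) lies on the minus strand of chr13:91992992-92016490. Each of these 3 genes has 1 transcript. Mb (ENSMUSG00000018893.8), on the minus strand of chr15:76845919-76881100, has 3 transcripts with 3 transcription start sites (TSS). The site with the most H3K4me3 reads in both cell types together, at 76853157, was used. Of the reads around it 2 were from myoblasts and 47 from myotubes, so this choice favours a site high in myotubes. The outermost Mb site lies 27943 bp upstream of the site used, inside the span of Apol6. The sequences just upstream of the start sites are shown because 3 of the 4 genes carried more active marks there in myotubes, and the Ckm enhancer is shown because it is the best known regulatory element of these genes. They are read 5′ to 3′ on the gene's strand. Capitals mark the E-boxes CAGCTG or CACCTG, which myogenic factors prefer, the MEF2 site and the TATA box. The Mb stretch ends 61 bases before the start site used, where a neighbouring Mb transcript begins.
Ckm promoter, chr7:19996193-19996442, plus strand: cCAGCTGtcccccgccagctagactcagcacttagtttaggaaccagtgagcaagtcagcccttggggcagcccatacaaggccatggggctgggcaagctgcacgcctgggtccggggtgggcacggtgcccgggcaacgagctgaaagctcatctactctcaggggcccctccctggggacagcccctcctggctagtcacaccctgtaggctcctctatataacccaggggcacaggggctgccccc
Ckm enhancer, chr7:19995143-19995442, plus strand: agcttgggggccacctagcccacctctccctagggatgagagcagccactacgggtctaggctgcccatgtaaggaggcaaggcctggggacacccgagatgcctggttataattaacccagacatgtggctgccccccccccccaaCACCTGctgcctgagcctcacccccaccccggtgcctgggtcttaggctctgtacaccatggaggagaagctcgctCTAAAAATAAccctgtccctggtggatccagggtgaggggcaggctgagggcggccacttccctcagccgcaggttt
Ckmt2 promoter, chr13:92016491-92016740, minus strand: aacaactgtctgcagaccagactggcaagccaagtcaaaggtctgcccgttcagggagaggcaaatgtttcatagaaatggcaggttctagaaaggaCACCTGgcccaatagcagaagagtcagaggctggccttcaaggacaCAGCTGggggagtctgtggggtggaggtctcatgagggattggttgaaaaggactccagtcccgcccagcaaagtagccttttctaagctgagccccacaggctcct
Mb promoter, chr15:76853218-76853407, minus strand: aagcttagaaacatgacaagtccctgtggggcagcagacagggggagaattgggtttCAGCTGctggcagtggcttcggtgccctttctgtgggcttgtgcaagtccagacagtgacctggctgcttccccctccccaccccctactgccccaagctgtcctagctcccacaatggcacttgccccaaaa
Ckb promoter, chr12:112910550-112910799, minus strand: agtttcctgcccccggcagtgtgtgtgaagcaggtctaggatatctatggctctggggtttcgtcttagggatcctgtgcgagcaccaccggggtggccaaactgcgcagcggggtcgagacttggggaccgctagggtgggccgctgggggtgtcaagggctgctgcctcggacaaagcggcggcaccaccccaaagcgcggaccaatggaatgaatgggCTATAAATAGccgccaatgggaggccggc

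Both strands were searched for the preferred E-boxes named above, for the MEF2 site and for the CArG box, which serum response factor binds. They were also searched for the MCAT motif of TEAD proteins, spelled CATTCC. The TATA box was looked for on the gene strand alone and only as the exact letters TATAAA. Other spellings, such as the TATATAA in the printed Ckm promoter, were not counted or put in capitals. In the 250 bases before the start site, CAGCTG or CACCTG occurred 2 times at Ckmt2 (at -153 and -107), 1 time at Ckm (at -249) and 1 time at Mb (at -193), with no match at Ckb. Of 22337 promoters, 26.4% held such an E-box in a window of this length. The Ckb window held a MEF2 site at -29, which shares its letters with the TATAAA at -28, and an MCAT match at -41. A MEF2 site was found in 1.59% of the promoters, TATAAA in 8.11% and MCAT in 10.9%. In the Ckm enhancer, CACCTG lay at -1153 and a MEF2 site at -1077. CAGCTG or CACCTG was found in 29.7% and a MEF2 site in 2.83% of the segments of 300 bases at the same distance from other genes. The CArG box was searched only as CCWWWWWWGG, with W for A or T, and no such match was found in any of the 5 windows. Looser spellings of the CArG box were not searched, so their presence was not tested. The 4 promoters also differed in CpG content over 1 kb either side of the TSS. The ratio of observed to expected CpG was 0.176 for Ckm, 0.238 for Ckmt2 and 0.146 for Mb, below the median of 0.477 over all promoters, and 0.643 for Ckb.

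The libraries held between 1858771 and 7033100 reads in myoblasts and between 3298694 and 6271899 in myotubes, which gives a genome mean of 0.727 to 2.75 reads per kb. Reads were counted 1 kb either side of the TSS, from 10 kb to 1 kb upstream, and over the gene body from 1 kb past the TSS. A level is given as fold over the genome mean of the same library. The smallest library, myoblast H3K27ac, would place 1.45 reads in the window around a TSS at that mean, so its low values are the least certain. A ratio is the myotube count over the myoblast count, with 1 read added to each and scaled by the total reads. A gene was called higher or lower where this ratio passed 2-fold and both libraries together held at least 10 reads. Promoters where both H3K4me3 lists held a peak numbered 10431, and over these the median of the ratio came to 0.866 for H3K4me3, 0.623 for H3K4me2, 1.03 for H3K4me1, 0.556 for H3K27ac and 0.840 for H3K27me3. Around the TSS of the 4 genes, ratios of H3K4me2 and H3K27ac are therefore given below also relative to this median. By marker lists that were chosen with earlier results of these data known, the cell types matched their labels. Of 8 myotube genes (Myog and genes of muscle structure) 7 were higher in myotubes for H3K4me3 and 7 for H3K27ac. Of 8 genes of cycling myoblasts 6 were lower for H3K4me3 and 8 for H3K27ac. Over all genes tested, 4.57% were higher for H3K4me3 and 5.53% for H3K27ac, while 8.71% and 41.7% were lower. Being lower for H3K27ac was thus common, and the median H3K27ac ratio of the 8 cycling genes was 0.156. Of 8 markers of other cell types none passed 2.77-fold over the genome mean for H3K4me3 or 1.38-fold for H3K27ac.

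Ckm, Ckmt2 and Mb carried more of the marks of active promoters in myotubes than in myoblasts, and Ckb did not. Around the TSS, 3 of the 4 genes were higher and 0 lower in myotubes for H3K4me3, against 4.57% higher and 8.71% lower among 12508 genes tested. For H3K4me2, 3 were higher and 1, Ckb, was lower, where 3.16% of 14451 genes were higher and 36% lower. For H3K27ac, 3 were again higher and Ckb was lower, where 5.53% of 12079 genes were higher and 41.7% lower. The genes called higher for these 3 marks each held under 10 reads in myoblasts. They passed the minimum only through their myotube reads, so these counts are a description and no support for a direction. The ratios and intervals of the single genes, given below, do not use this minimum. For H3K4me1, 2 were higher and 0 lower, against 11.1% and 18.4% of 15460 genes. For H3K27me3, 3 genes could be tested. Of these 0 were higher and 3 lower, against 5.05% and 18.5% of 8100 genes. These 3 calls rest on few reads, with 2 reads each in myotubes. Ckm and Ckmt2 passed the minimum of 10 reads through myoblast counts of 11 and 14, and Ckb through 9 and 2 reads. With 2 myotube reads, a gene that reaches this minimum could only be called lower. The 3 calls therefore carry no information on direction, and 0 genes were lower once 5 reads in place of 1 were added to each count. Over the gene body, 2 genes, Ckm and Mb, were higher for H3K36me3 and 0 lower, against 8.35% and 7.24% of 16731 genes. The median ratio of the 4 genes was 8.83 for H3K4me3, 6.31 for H3K4me2, 16.4 for H3K27ac, 2.75 for H3K4me1 and 4.37 for H3K36me3 in the body. Over all genes tested these medians were 0.865, 0.598, 0.570, 0.904 and 1.02. For H3K27me3 the median over all 4 genes, with Mb included though it held too few reads to be tested, was 0.385, against 0.840.

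**Figure D1:**
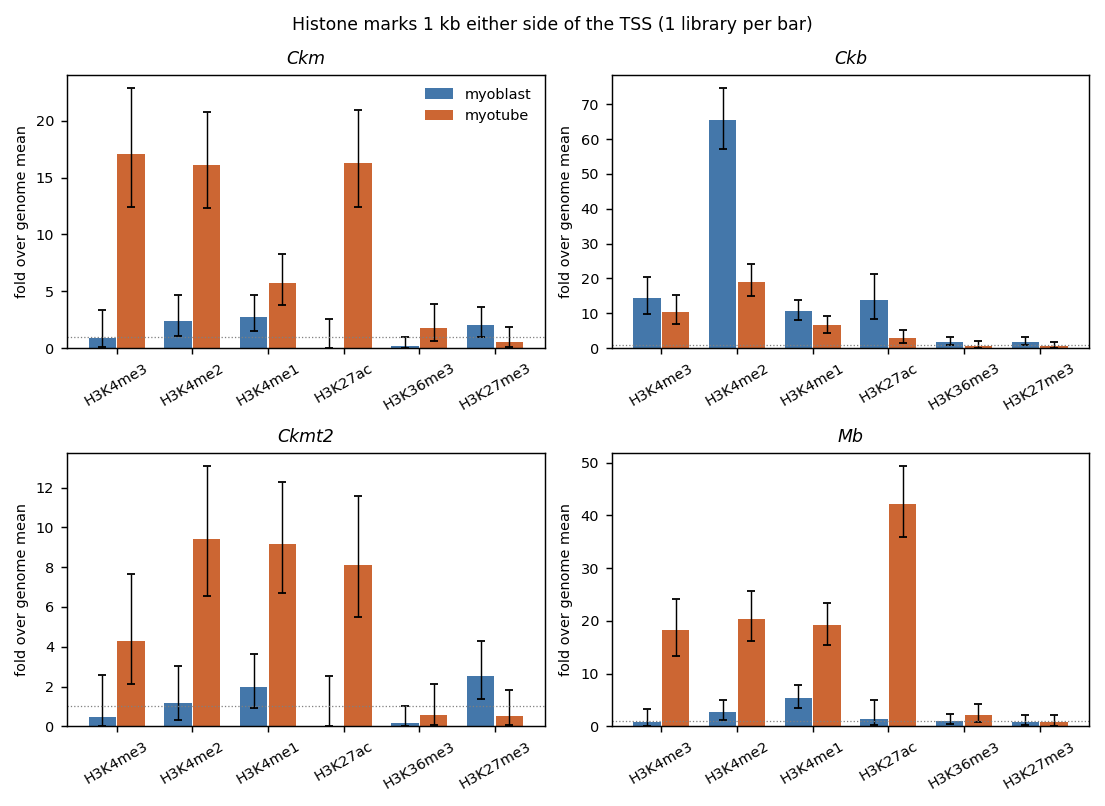
Fold over the genome mean (y axis) of 6 histone marks (x axis) 1 kb either side of the TSS of Ckm, Ckb, Ckmt2 and Mb, in myoblasts (blue) and myotubes (orange). Each bar is 1 library, error bars are exact 95% Poisson intervals, the dotted line is the genome mean, and the scales differ between genes. Ckm, Ckmt2 and Mb stand high in myotubes for the first 4 marks, while Ckb stands highest for H3K4me2 in myoblasts, at 65.5-fold.

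**Figure D2:**
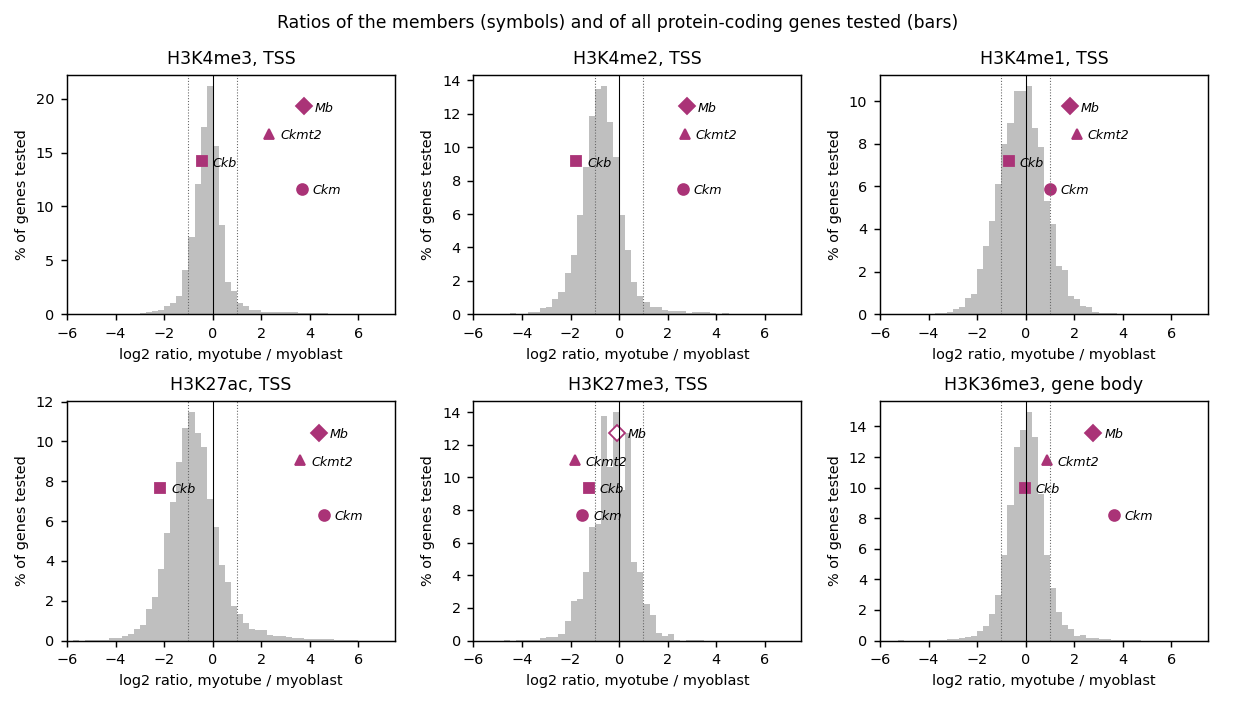
Log2 ratio of myotubes to myoblasts (x axis) for the 4 genes (symbols, placed at different heights only to separate them, and open where under 10 reads were counted) and for all protein-coding genes tested (grey bars, % of genes on the y axis). Ckm, Ckmt2 and Mb lie in the right tail for H3K4me3, H3K4me2 and H3K27ac, and Ckb lies left of 0 for each of the 5 marks around the TSS.

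The muscle form, Ckm, had almost no H3K27ac or H3K4me3 reads around its TSS in myoblasts. H3K27ac was counted 0 times in myoblasts and 60 times in myotubes, where its level was 16.2-fold (12.4 to 20.9). Taking 3 reads as the limit of the myoblast count, the myotube count was at least 7.87-fold higher, and the exact interval of the ratio, which also covers the error of the myotube count, begins at 6.2. Relative to the median promoter the ratio was 43.1. H3K4me3 had 2 reads in myoblasts and 44 in myotubes, or 0.922-fold (0.112 to 3.33) and 17.1-fold (12.4 to 22.9). The ratio was 12.6, with an interval of 4.83 to 158 for the ratio without added reads, and only 70 of 12508 genes had a higher one. The intervals of the levels in the 2 cell types were far apart for both marks. H3K4me2 had 8 and 60 reads, or 2.38-fold and 16.1-fold, a ratio of 6.12 (3.22 to 16.4), or 9.82 relative to the median promoter. H3K4me1 was less different, with 14 and 28 reads, or 2.76-fold and 5.71-fold, and its ratio of 2.00 lay just under the limit for a call, though its interval of 1.05 to 4.24 lies above 1. In myotubes the H3K4me3 level of Ckm exceeded that of 62.6% of all promoters and its H3K27ac level that of 78.9%. The surroundings of Ckm were also above the genome mean, and against the 200 kb around it without the central 40 kb the myotube levels were 5.21-fold for H3K4me3 and 3.72-fold for H3K27ac.

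Upstream of Ckm the H3K27ac signal of myotubes was highest not at the start site but over the enhancer side of the promoter. In bins of 500 bp, the highest count was 25 reads from -1000 to -500, or 27.1-fold, followed by 24 reads from -1500 to -1000, or 26.0-fold. H3K4me3 was highest just downstream of the TSS, with 20 reads from 0 to 500, or 31.0-fold. The 300 bases of the enhancer shown above held 9 H3K27ac reads in myotubes, or 16.2-fold (7.43 to 30.8), and 0 in myoblasts. They held 5 H3K4me1 reads in myotubes against 1 in myoblasts, 5 H3K4me2 reads against 0, and 1 H3K4me3 read against 0. All of these counts are below 10 reads, and 3 reads in the smaller H3K27ac library would already be 13.8-fold, so a lower enhancer signal in myoblasts was not detectable at this depth from the segment alone. The deposited myotube H3K27ac list held 1 peak from -1855 to 424 with a score of 668, higher than 83.5% of the list, that covers enhancer and promoter together. Over this peak H3K27ac was counted 1 time in myoblasts and 80 times in myotubes, with a ratio of 15.9 and a lower bound of 5.49. H3K4me1 over the same peak had 13 and 37 reads, a ratio of 2.80 (1.53 to 6.03).

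From 10 kb to 1 kb upstream H3K4me1 had 38 reads in myoblasts and 34 in myotubes, a ratio of 0.927 (0.564 to 1.51), and H3K27ac had 8 and 36, a ratio of 1.62 (0.809 to 4.41). Both intervals include 1, and 21.1% of the 13202 genes tested had a higher H3K27ac ratio in the same window. Relative to the median promoter the H3K27ac ratio was 2.91, and even its lower limit of 0.809 lies above that median of 0.556. Of the 36 myotube H3K27ac reads, 24 lay from -1500 to -1000, so the ratio says little on the rest of the window. Myoblasts had deposited peaks between 10 kb and 1 kb upstream for H3K4me2, from -7405 to -6649, and for H3K4me1, from -7636 to -7034. Both lie near the TSS of Klc3, a neighbour on the other strand that begins 6990 bp upstream. In the segment from 700 to 1700 bp downstream, which holds the regulatory region known from the first intron, H3K4me3 had 1 and 11 reads, H3K4me2 had 2 and 14, and H3K27ac had 0 and 10. That segment overlaps the predicted gene Gm17405, which starts 530 bp downstream of the Ckm TSS on the same strand, so the 2 annotations share these reads.

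H3K36me3 over the Ckm body was 0.498-fold (0.265 to 0.852) in myoblasts, from 13 reads, and 6.62-fold (5.42 to 8.01) in myotubes, from 106 reads. The ratio of 12.5 (7.45 to 25.8) was exceeded by only 11 of 16731 genes. The last part of the body is overlapped on the other strand by A930016O22Rik, whose reads cannot be told apart from those of Ckm. Without it, Ckm had 7 and 54 reads, with a ratio of 11.2 (5.71 to 32.8). The myotube list held 6 H3K36me3 peaks in the body, and the myoblast list held 0. At the end of the gene, where A930016O22Rik begins, H3K4me2 was lower in myotubes. A myoblast H3K4me1 peak from 9881 to 10808 held 29 H3K4me2 reads in myoblasts and 6 in myotubes, a ratio of 0.211 (0.0634 to 0.458). In the same peak H3K36me3 was higher, with 3 and 16 reads and a ratio of 6.93 (2.49 to 46.6), and H3K4me1 had a ratio of 0.710 whose interval of 0.277 to 1.64 includes 1. H3K27me3 around the Ckm TSS was 2.00-fold in myoblasts, from 11 reads. This level exceeded that of 81.8% of all promoters, and the median over all genes was 0.911-fold. In myotubes H3K27me3 there was 0.510-fold (0.0618 to 1.84), from 2 reads. Its ratio of 0.350 passed the limit, but the interval of 0.0274 to 1.17 includes 1.

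**Figure D3:**
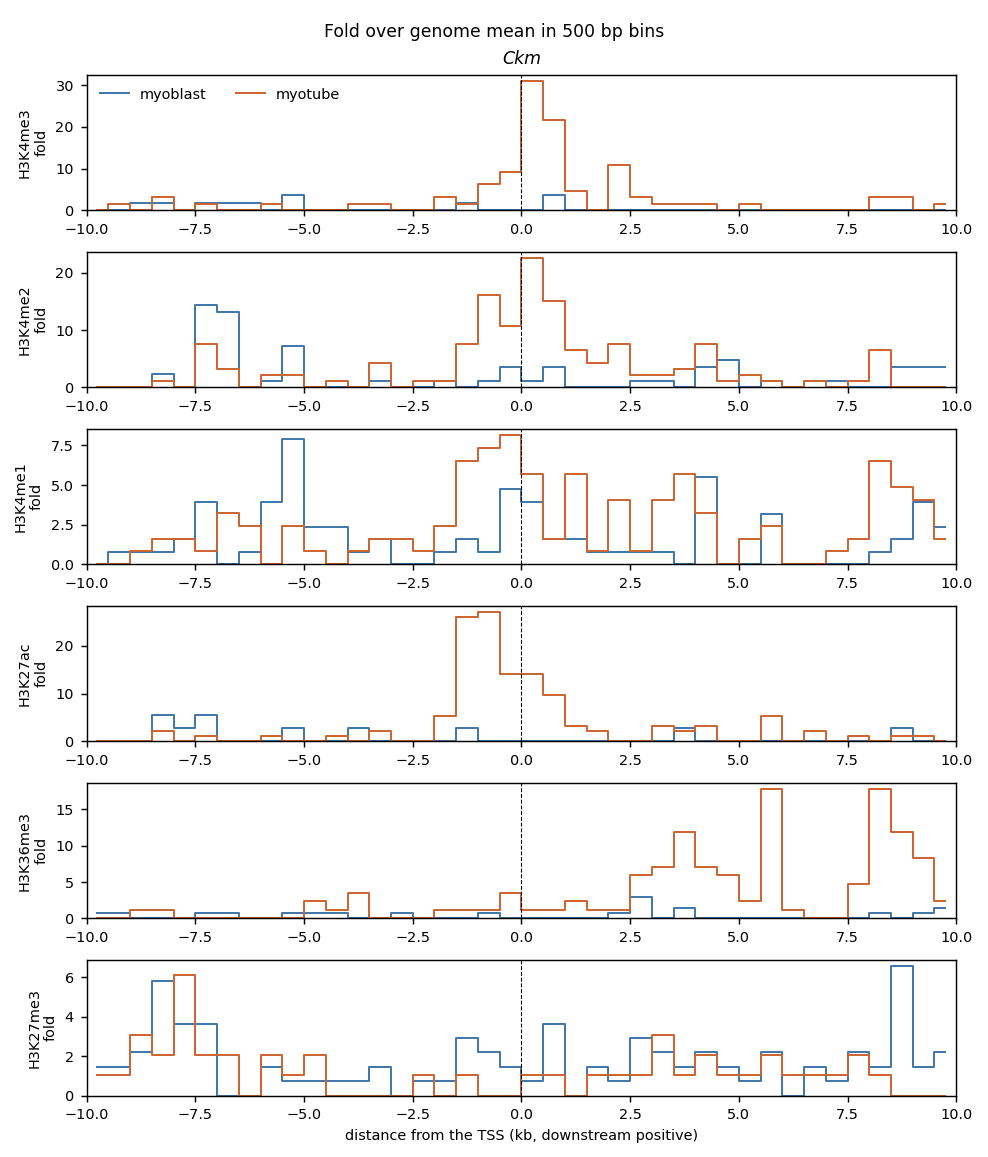
Fold over the genome mean in 500 bp bins (y axis, 1 panel per mark) against the distance from the Ckm TSS in kb (x axis, dashed line at the TSS), in myoblasts (blue) and myotubes (orange). Myotube H3K27ac stands over the enhancer and promoter, up to 27.1-fold, H3K4me3 just downstream of the TSS, up to 31.0-fold, and H3K36me3 in blocks along the gene body, up to 17.8-fold.

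Mb, which encodes the oxygen store of muscle, had the highest myotube levels of H3K27ac and H3K4me1 of the 4 genes around the TSS, with intervals apart from those of the other 3. H3K27ac had 2 reads in myoblasts and 156 in myotubes, or 1.38-fold (0.167 to 4.97) and 42.2-fold (35.9 to 49.4). The ratio was 20.6 (8.35 to 256), and 35 of 12079 genes had a higher one. H3K4me3 had 2 and 47 reads, or 0.922-fold and 18.2-fold (13.4 to 24.2), a ratio of 13.5 (5.18 to 168). The intervals of the 2 cell types were apart for both marks. H3K4me2 had 9 and 76 reads, or 2.68-fold and 20.4-fold, a ratio of 6.95 (3.81 to 17.3). Relative to the median promoter the ratios were 37 for H3K27ac and 11.2 for H3K4me2. H3K4me1 had 27 and 94 reads, or 5.33-fold (3.51 to 7.76) and 19.2-fold (15.5 to 23.5), a ratio of 3.50 (2.32 to 5.74). The myotube level of H3K4me1 exceeded that of 99.95% of all promoters. Against the 200 kb around it without the central 40 kb, Mb stood at 11.4-fold for H3K27ac and 6.26-fold for H3K4me3 in myotubes. H3K27me3 had 5 and 3 reads, both at or under the genome mean and too few for a ratio.

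The stretch before Mb held more H3K4me1 in myoblasts than the same stretch before Ckm, where it was 1.67-fold (1.18 to 2.29). From 10 kb to 1 kb upstream, H3K4me1 was 10.3-fold (8.99 to 11.7) in myoblasts and 17.4-fold (15.7 to 19.3) in myotubes, from 234 and 385 reads. H3K27ac was 3.98-fold (2.60 to 5.83) and 14.7-fold (12.9 to 16.6), from 26 and 244 reads, a ratio of 3.57 (2.46 to 5.77). A myoblast H3K4me1 peak from -8393 to -6335, with a score higher than 91.9% of its list, had 128 reads in myoblasts and 134 in myotubes. Its H3K4me1 ratio was 1.08 (0.842 to 1.39). Within the same peak H3K4me3 had 9 and 32 reads, a ratio of 2.78 (1.40 to 7.12), H3K4me2 had a ratio of 1.92 (1.26 to 3.09), and H3K27ac had 20 and 83 reads, a ratio of 1.57 whose interval of 0.993 to 2.81 includes 1. So this region had nearly the same H3K4me1 in both cell types, while the differences in the other marks were smaller than at the TSS.

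Mb had a further H3K27ac peak in myotubes at its 3′ end, from 6370 to 9982, which runs past the gene end 7238 bp from the TSS. Its score was the highest of the peaks at the 4 genes for this mark and exceeded 94.5% of the list. H3K27ac was counted 8 times there in myoblasts and 304 times in myotubes, or 3.05-fold (1.32 to 6.00) and 45.5-fold (40.6 to 51.0), a ratio of 13.3 (7.49 to 34.9). H3K4me3 in this peak had 7 and 59 reads, H3K4me2 27 and 142, and H3K4me1 69 and 159. H3K36me3 over the Mb body was 1.40-fold (0.896 to 2.08) from 24 reads in myoblasts and 9.98-fold (8.16 to 12.1) from 105 reads in myotubes, a ratio of 6.91 (4.54 to 11.6). Only 70 genes had a higher ratio. These Mb values hold for the TSS that was used, which was chosen by H3K4me3 reads that came mostly from myotubes. The Mb H3K4me3 ratio is thus drawn from the reads that chose the site. At the outermost TSS the ratios were 1.68 for H3K4me3, 0.602 for H3K4me2, 1.18 for H3K4me1 and 0.918 for H3K27ac, and none passed 2-fold.

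**Figure D4:**
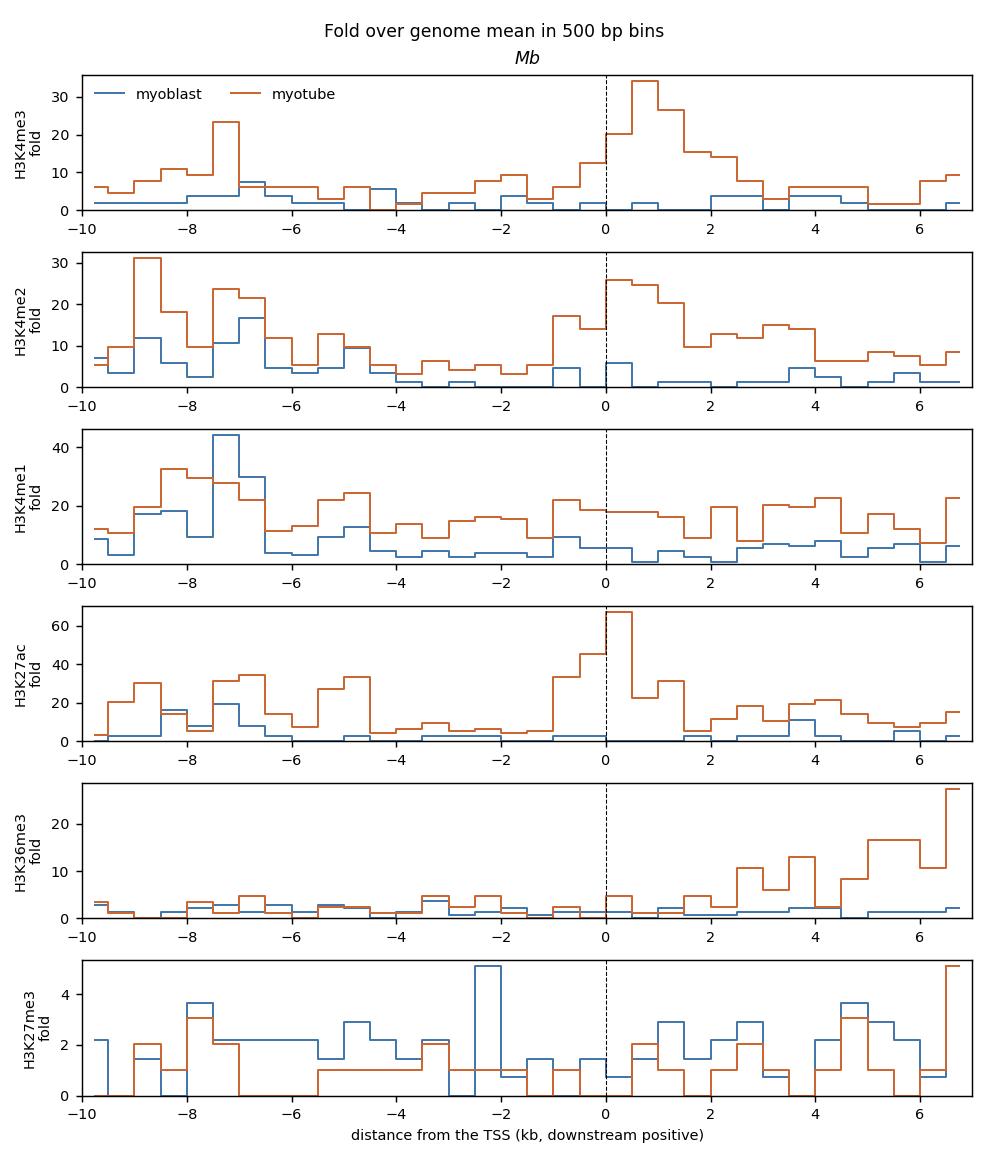
Fold over the genome mean in 500 bp bins (y axis, 1 panel per mark) against the distance from the Mb TSS in kb (x axis, dashed line at the TSS), in myoblasts (blue) and myotubes (orange). H3K27ac of myotubes reaches 67.1-fold just past the TSS, while H3K4me1 about 7 kb upstream reaches 44.2-fold in myoblasts.

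Ckmt2, the mitochondrial form, was also higher in myotubes, but at lower levels than Ckm for H3K4me3 and H3K27ac. H3K27ac had 0 reads in myoblasts and 30 in myotubes, or 8.12-fold (5.48 to 11.6). Against the limit of 3 reads this was at least 3.93-fold higher, and the exact interval of the ratio begins at 3.01. H3K4me3 had 1 and 11 reads, or 0.461-fold (0.0117 to 2.57) and 4.27-fold (2.13 to 7.63), a ratio of 5.05 (1.34 to 398). The levels of H3K4me3 in the 2 cell types have overlapping intervals, while those of H3K27ac do not. H3K4me2 had 4 and 35 reads, or 1.19-fold and 9.41-fold, a ratio of 6.50 (2.82 to 30.6). Relative to the median promoter the ratios were 21.9 for H3K27ac and 10.4 for H3K4me2. H3K4me1 had 10 and 45 reads, or 1.97-fold and 9.18-fold (6.69 to 12.3), a ratio of 4.32 (2.31 to 10.3). In a window of 2 kb downstream of the TSS the Ckmt2 ratios were 1.39 for H3K4me2, 1.47 for H3K4me1 and 1.97 for H3K27ac, all under the limit. In myotubes the 4 genes can be put in order for H3K27ac, with Mb highest, then Ckm, Ckmt2 and Ckb, and no neighbours in this order had overlapping intervals. For H3K4me3 the order was Mb, Ckm, Ckb and Ckmt2. The intervals of Mb, Ckm and Ckb overlapped there, and so did those of Ckb and Ckmt2.

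The myotube marks at Ckmt2 were centred upstream of the annotated start. H3K4me3 and H3K27ac were highest from -1000 to -500, at 12.4-fold (5.36 to 24.5) from 8 reads and 19.5-fold (11.5 to 30.8) from 18 reads. The deposited H3K27ac peak ran from -1195 to -206 and the H3K4me3 peak from -1261 to -644, so neither included the annotated TSS. From 10 kb to 1 kb upstream H3K27ac had 2 and 28 reads, a ratio of 3.80 (1.39 to 47.7), and H3K4me1 33 and 75, a ratio of 2.31 (1.54 to 3.65). Inside the gene, a myoblast H3K4me1 peak from 1549 to 2358 had 26 reads in myoblasts and 24 in myotubes, a ratio of 0.956 (0.524 to 1.73). H3K36me3 over the body stayed low, at 0.663-fold (0.476 to 0.899) from 41 reads and 1.21-fold (0.888 to 1.62) from 46 reads. Its ratio of 1.82 (1.17 to 2.86) was under the limit, and the median over all bodies tested was 1.82-fold in myotubes. H3K27me3 around the TSS had 14 reads in myoblasts, or 2.55-fold (1.40 to 4.28), and 2 in myotubes, or 0.510-fold (0.0618 to 1.84). The ratio was 0.280 (0.0221 to 0.870), and Ckmt2 was the only one of the 4 genes whose interval for this mark lay under 1. Its upper limit of 0.870 lies above the median promoter ratio of 0.840, so relative to that median the interval includes 1. With 5 reads added Ckmt2 was no longer called lower. Further along the Ckmt2 body H3K27me3 was 2.62-fold from 162 reads in myoblasts and 2.40-fold from 106 reads in myotubes, a ratio of 0.919 (0.710 to 1.18).

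Ckb, the brain form, carried H3K4me3, H3K4me2 and H3K4me1 in both cell types, with less H3K4me2 and H3K27ac in myotubes. H3K4me2 had 220 reads in myoblasts and 71 in myotubes, or 65.5-fold (57.2 to 74.8) and 19.1-fold (14.9 to 24.1), a ratio of 0.294 (0.220 to 0.382). The myoblast level exceeded that of 95.3% of all promoters. H3K27ac had 20 and 11 reads, or 13.8-fold (8.41 to 21.3) and 2.98-fold (1.49 to 5.33), a ratio of 0.225 (0.0936 to 0.474). The intervals of the 2 cell types were apart for both marks. Many other promoters were lower for these marks too. Relative to the median promoter the Ckb ratios were 0.472 and 0.404, and 7.18% of the genes tested had a lower H3K27ac ratio. The myotube H3K27ac level of Ckb lay near the median of 2.44-fold over all genes. Against the 200 kb around Ckb without the central 40 kb, H3K27ac was 2.06-fold in myoblasts and 0.424-fold in myotubes. H3K4me3 had 31 and 27 reads, or 14.3-fold (9.71 to 20.3) and 10.5-fold (6.90 to 15.2), a ratio of 0.736 whose interval of 0.421 to 1.27 includes 1. A deposited H3K4me3 peak covered the Ckb TSS in myoblasts, from -687 to 889 with a score of 77.8, and no H3K4me3 peak covered it in myotubes, although the counts did not differ beyond counting error. H3K4me1 had 54 and 32 reads, a ratio of 0.620 (0.382 to 0.965). H3K27me3 had 9 and 2 reads, and its ratio of 0.420 has an interval that includes 1.

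H3K36me3 over the Ckb body was 6.23-fold (4.32 to 8.71) in myoblasts and 5.98-fold (3.65 to 9.23) in myotubes, from 34 and 20 reads, a ratio of 0.978 (0.523 to 1.71). In myoblasts Ckb lay above Ckm, Ckmt2 and Mb with no overlap of intervals. In myotubes the interval of Ckb overlapped those of Ckm and Mb, that of Mb lay just above that of Ckm, and that of Ckmt2 lay below all 3. Most of the H3K4me3 and H3K4me2 reads upstream of Ckb lay at the promoter of Trmt61a, which begins 5767 bp upstream on the other strand. Its TSS window held 82 of the 97 H3K4me3 reads in myoblasts and 106 of the 118 in myotubes, but 73 of the 164 and 40 of the 91 H3K4me1 reads. There H3K4me3 was 37.8-fold and 41.1-fold, H3K4me2 103-fold and 33.3-fold, and H3K27ac 25.5-fold and 7.85-fold in myoblasts and myotubes. The ratios of 1.08, 0.324 and 0.311 at this neighbour were of a similar size to those at Ckb.

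**Figure D5:**
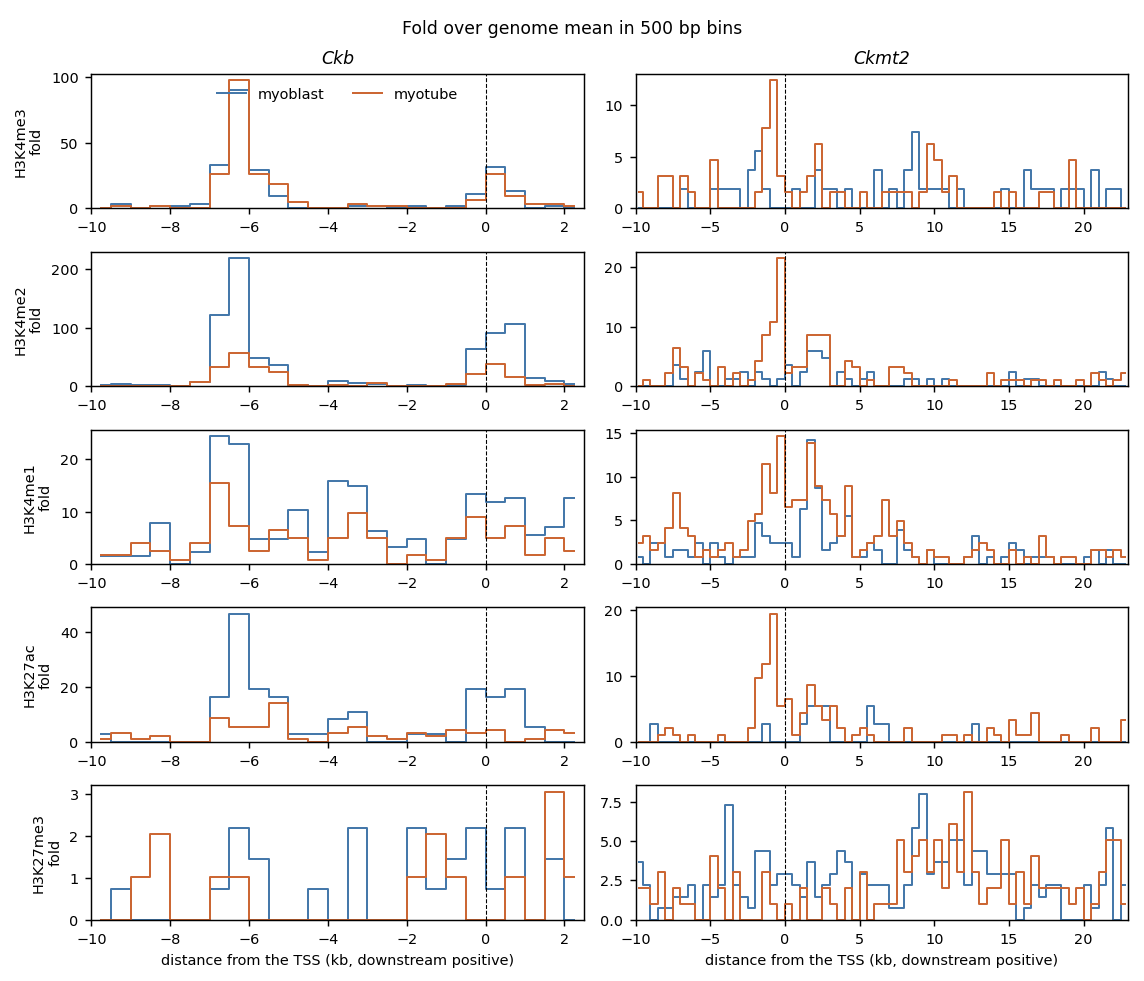
Fold over the genome mean in 500 bp bins (y axis, 1 row per mark) against the distance from the TSS in kb (x axis, dashed line at the TSS) for Ckb (left) and Ckmt2 (right), in myoblasts (blue) and myotubes (orange). The peak 6 kb before Ckb is the Trmt61a promoter, and the H3K27ac and H3K4me3 of Ckmt2 stand 500 to 1000 bp before its annotated TSS.

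Other genes of creatine and adenylate metabolism and 2 further globins were looked at as a list of 10, chosen by name. They are the ubiquitous mitochondrial kinase Ckmt1, the creatine synthesis enzymes Gatm and Gamt, the creatine transporter Slc6a8, adenylate kinase Ak1, muscle AMP deaminase Ampd1, the ADP/ATP carrier Slc25a4, the outer membrane channel Vdac1, cytoglobin Cygb and neuroglobin Ngb. For H3K4me3, 7 of the 10 could be tested, of which 1 was higher and 0 lower. For H3K27ac, 8 could be tested, of which 1 was higher and 2 lower, and for H3K4me2, 9, of which 1 was higher and 4 lower. Over all genes tested 41.7% and 36% were lower for these 2 marks, so these counts lie near the background. For H3K4me1, 1 of 10 was higher and 1 lower. For H3K27me3, 0 of 4 passed in either direction. Ampd1, which acts in muscle on AMP, was the gene that was higher in each of the first 4 marks. It had 2 and 18 H3K4me3 reads, or 0.922-fold and 6.98-fold, a ratio of 5.33 (1.81 to 67.3), and 4 and 40 H3K27ac reads, a ratio of 3.23 (1.42 to 15.1). Gatm had 41 and 48 H3K27ac reads, or 28.2-fold and 13.0-fold, a ratio of 0.459 (0.297 to 0.717). Vdac1 had 238 and 205, or 164-fold and 55.5-fold, a ratio of 0.339 (0.280 to 0.410). Over all 10 genes the median ratio was 0.999 for H3K4me3 and 0.680 for H3K27ac. Gamt, Slc6a8, Ak1 and Slc25a4 had H3K4me3 in both cell types, between 19.8-fold and 41.0-fold, with ratios from 0.726 to 1.07. Ckmt1 was at 1.38-fold and 1.94-fold for H3K4me3 and at 4.56-fold and 5.61-fold for H3K27me3, from 25 and 22 reads.

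The genes whose levels around the TSS were most like those of each gene were found by the mean absolute difference of log2 level over the 12 libraries and 6 marks, with 1 read added. For Ckm they were Palld (0.49), which encodes the actin-associated protein palladin, Arpp21 (0.51) and Actn2 (0.51), which encodes a Z-disc actinin. For Mb they were Casq1 (0.44), the calcium-binding protein of the sarcoplasmic reticulum, 2310007L24Rik (0.46) and Myom2 (0.48), a protein of the M-band. For Ckmt2 they were Igfn1 (0.51), 2310016G11Rik (0.51) and Rnase1 (0.54). For Ckb they were Slc2a13 (0.32), Impa2 (0.33) and Khk (0.34), of which Khk encodes ketohexokinase. The median difference to all other genes was 1.96 for Ckm, 1.95 for Mb, 2.08 for Ckmt2 and 1.59 for Ckb. This likeness is a description of 12 libraries without replicates.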

How the data were processed

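Histone marks were measured by ChIP-seq in 12 libraries. The authors aligned the reads to mm9 with Mosaik and kept unique alignments, and deposited 1 line per 34 bp read, each a count of 1. Whether duplicates were removed is not given in the sources used here. Per the paper's methods the deposited peaks were called with MACS, and the deposited score ranks peaks within 1 list. No input library was used here. In myoblasts the list deposited with the H3K27me3 sample held H3K27ac reads at 36.4 times and H3K27me3 reads at 0.804 times the genome mean. For the H3K27ac sample the list held 6.76 times the mean in H3K27me3 and 0.588 times in H3K27ac. Neither list was used for a statement on these marks in myoblasts, and levels do not use peaks.

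Reads on chromosomes 1 to 19 and X were extended to 150 bp and fragment midpoints were counted. Genes came from GENCODE M1 (Ensembl 65), on the same build as the files. The TSS was that with the most H3K4me3 reads in both cell types. Levels have exact Poisson intervals and ratios exact conditional binomial intervals. Where a count was 0, 3 reads were used as the limit. Between 0.42% and 3.14% of reads shared position and strand with another. Genes named are the 4 studied, the 3 most similar genes for each, members of the list of 10 past 2-fold for H3K4me3 or H3K27ac, and neighbours in the windows. The others of the list of 10 and the marker lists are given by counts or by range, and Ckmt1 was described after its values were seen. The genes and lists were chosen with earlier results of these data known. Alternatives are listed at the end, and the one without the overlap with A930016O22Rik was added after seeing the data. The counting and the intervals were tested on simulated data. Counting used numpy 2.4.6 and pandas 2.3.3 under Python 3.11.15, intervals scipy 1.17.1, and plots matplotlib 3.10.9.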

Additional observations from a re-analysis of the deposited data

How the results depend on the processing

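Of the ratios at the 4 genes, 387 moved by less than their counting interval over the alternatives, 9 moved by more and 2 turned direction. Both that turned are Mb with the TSS of most transcripts, where the ratio was 0.602 for H3K4me2 and 0.918 for H3K27ac. With that TSS, and in a window 2 kb downstream of the TSS, 1 of the 4 genes was higher for H3K4me1 and 2 each for H3K4me3, H3K4me2 and H3K27ac. The 3 genes higher for H3K4me3 also became 2 in thinned libraries, with 500 bp either side and with at least 30 reads. In the window 2 kb downstream the Ckmt2 ratios were 1.39 for H3K4me2, 1.47 for H3K4me1 and 1.97 for H3K27ac. The 3 genes lower for H3K27me3 became 1 in libraries thinned to the smaller one, 1 in the window 2 kb downstream, and 0 with 5 reads added, with 500 bp either side or with at least 30 reads.

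Counts of all genes depended more on the choices. Scaled to promoters with a peak in both cell types, 700 genes were lower for H3K4me3, 1276 higher and 1587 lower for H3K4me2, 1936 and 1529 for H3K27ac, and 772 and 930 for H3K27me3. Scaled outside peaks, 251 were higher and 10068 lower for H3K4me2, and 1009 and 4324 for H3K4me1. With 5 reads added, 371 were higher for H3K4me3 and 371 for H3K27ac, 902 higher and 1792 lower for H3K4me1, 240 and 396 for H3K27me3, and 754 lower for H3K36me3 over the body. With no minimum count, 1667 were higher and 3160 lower for H3K4me3, 1578 higher for H3K4me2, 3176 higher for H3K4me1, 10450 lower for H3K27ac, and 2441 higher and 4220 lower for H3K27me3. With at least 30 reads, 317 were higher for H3K4me3, 258 for H3K4me2, 494 higher and 1707 lower for H3K4me1, and 15 and 475 for H3K27me3. With 500 bp either side, 169 were higher and 919 lower for H3K27me3. The minimum count and the window change how many genes are tested. For H3K27me3 these were 8100 in the main setting, 3468 with 500 bp either side and 1842 with at least 30 reads, so bare counts are not on the same base. A scale multiplies every ratio of a mark by the same factor. For H3K4me2 the scale was 1.11 by total reads, 1.72 outside peaks and 0.690 at promoters. For the other choices the cause was not tested. With 5 reads added the H3K27ac ratios of Ckm and Ckmt2 were 5.11 and 2.75. The myoblast H3K27ac library is the smallest, and its counts of 0 limit these 2 ratios. No paired analysis was possible because each group holds 1 library.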
